A study of Canis lupus familiaris with 4 samples.

Results

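The genes described here are NF-kB subunits, feedback inhibitors of NF-kB and 2 genes used as readouts of its activity, read on expression arrays from sorted canine mammary cancer cells that had grown with or without macrophages. The list held 10 genes: the subunits NFKB1, NFKB2, RELA and RELB, the inhibitors NFKBIA, NFKBIE, NFKBIZ and TNFAIP3, and the effectors BIRC3 and ICAM1. Members were all non-control probes that carried a listed symbol as gene name or in brackets in the probe description. This rule found 17 probes for 9 of the 10 genes, among 43603 probes on the array, and no probe was found for NFKBIE. Of these, 16 probes passed the filter for signal above background, among 28694 probes tested, and these stand for 9 of 10803 genes tested. The listed genes were selected on their co-culture ratios, the log2 intensity in co-culture over that in single culture, so those ratios are given as a description with no test.

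The cells came from P114 and CMT-U27, established lines of canine mammary cancer. They had been sorted as positive for Sca1, EpCAM and CD44, a rare fraction of each line enriched for stem-like cells. All groups grew in RPMI-1640 with fetal bovine serum, penicillin-streptomycin and fungizone. In each line 1 group was co-cultured with tumour-associated macrophages and the other was the same sorted fraction in single culture, and the labels give day 3 for all of them. On each of the 4 arrays a line's co-culture was hybridised against its single culture, and the dyes were swapped between the 2 arrays of a line. Co-culture was in Cy3 on P114 replicate 1 and CMT-U27 replicate 2, and in Cy5 on P114 replicate 2 and CMT-U27 replicate 1. The labels call the arrays biological replicates but name no separate cultures, so p-values measure only the spread between these arrays, which may be technical. They also do not say whether macrophages were removed before RNA was isolated. With bulk RNA, fewer cells of a type and less RNA per cell cannot be told apart.

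NF-kB factors are dimers of Rel-family proteins that are held in the cytoplasm of resting cells by inhibitors of the IkB family. Receptors for tumour necrosis factor, interleukin-1 and bacterial products activate IkB kinases, which mark the inhibitor for degradation and let the dimer enter the nucleus. Several of its targets, among them NFKBIA and TNFAIP3, encode proteins that shut the pathway down again, so their transcripts are widely used as a readout of NF-kB activity.

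The genes that differed between the lines were NFKBIA, ICAM1 and TNFAIP3, and their probes are printed because those results turn on them. NFKBIA was read by a pair of probes on the minus strand of CanFam3.1, at chr8:14101519-14101578 and chr8:14103181-14103240, whose starts lie 1662 bases apart. Their sequences are in lower case, 5′ to 3′.
NFKBIA, brighter probe: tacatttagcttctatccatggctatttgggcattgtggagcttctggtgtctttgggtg
NFKBIA, other probe: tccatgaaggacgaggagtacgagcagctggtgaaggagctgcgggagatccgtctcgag
The brighter probe had a GC content of 45.0% and the other one of 60.0%. The ICAM1 probes lie on the minus strand at chr20:50818764-50818823 and chr20:50820867-50820926.
ICAM1, brighter probe: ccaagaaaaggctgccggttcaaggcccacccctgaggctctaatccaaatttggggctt
ICAM1, other probe: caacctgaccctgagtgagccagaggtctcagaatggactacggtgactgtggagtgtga
The TNFAIP3 probe that was tested lies on the plus strand at chr1:30259728-30259787.
TNFAIP3, brighter probe: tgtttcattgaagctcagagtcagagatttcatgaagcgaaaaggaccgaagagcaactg
Exon, intron and UTR annotation of this build was not used here. Of the 9 genes, RELB had 1 probe and the other 8 had a pair each. A gene is described below by its brightest tested probe, and its other probe is given where it differs.

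On P114 replicate 1, 89.4% of spots in Cy3 and 91.7% in Cy5 were well above background, against 57.9% to 65.7% in the channels of the other 3 arrays, and no spot was saturated (0). Co-culture ratios correlated across probes at a Pearson r of -0.149 between the P114 arrays and 0.053 between the CMT-U27 arrays, and probes are not independent replicates. In limma's fit of the ratios, 0 of 28694 probes passed an adjusted p of 0.05 in P114, in CMT-U27 or in the difference between the lines, which is 0% in each. At an unadjusted p under 0.05 there were 1757, 928 and 821 probes. Direction rests on the dyes recorded for each channel: were a line's channels recorded in the wrong order, all its ratios would turn sign.

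With macrophages, NFKBIA stood above single culture on all 4 arrays, 1.76-fold in P114 and 1.55-fold in CMT-U27. Of the 9 genes, 8 had a ratio above 0 on all 4 arrays, where 11.8% of all genes tested did. Both P114 arrays were above 0 for 8 of 9 genes (23.6% of all genes), and both CMT-U27 arrays for 9 of 9 (41.3% of all genes). The exception was ICAM1 in P114. The median log2 ratio of the 9 genes was 0.16 in P114 and 0.30 in CMT-U27, beside 0.01 and 0.03 over all genes. These ratios were used to choose the list, and nothing is read from the counts.

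**Figure D1:**
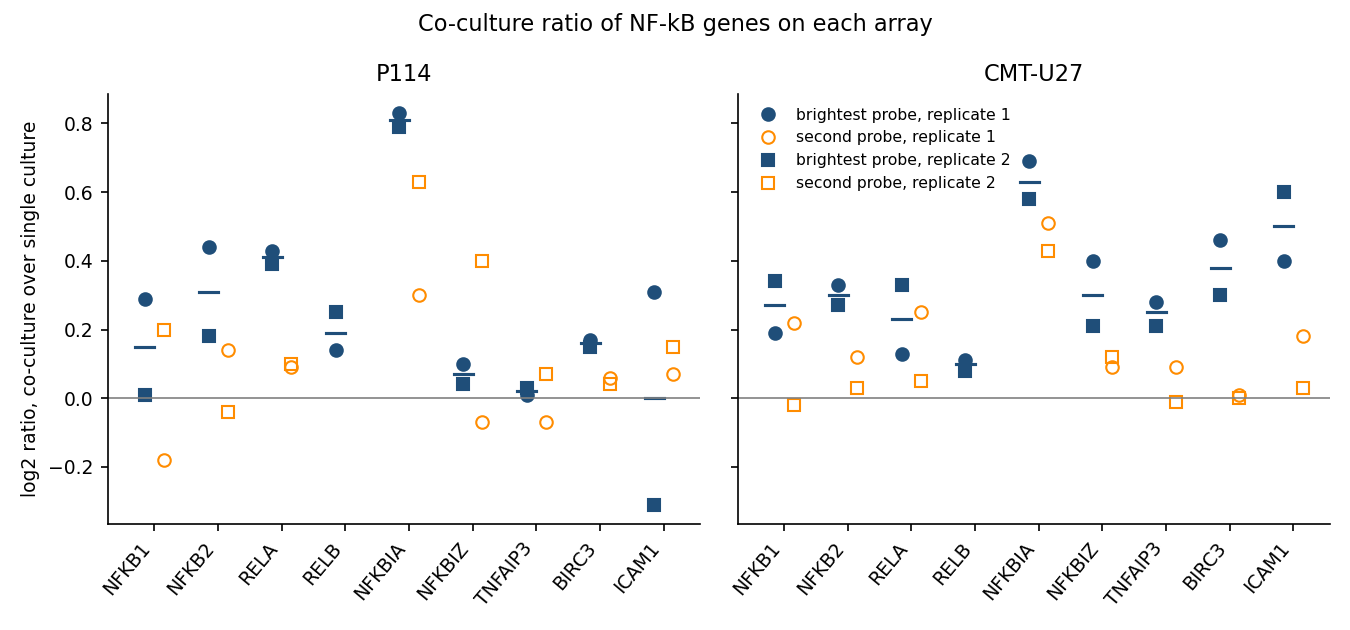
Log2 ratio of co-culture over single culture (vertical axis) of the 9 genes on each array of P114 (left) and CMT-U27 (right), with filled symbols for the brightest probe, open symbols for the other probe, circles for replicate 1, squares for replicate 2 and bars for the mean of the brightest probe. NFKBIA lies highest in both lines, at means of 0.81 and 0.63, and the ICAM1 arrays lie on opposite sides of 0 in P114.

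Among the subunits, RELA encodes p65, the subunit that carries the activation domain of the canonical dimer. Its log2 ratio was 0.43 and 0.39 on the P114 arrays and 0.13 and 0.33 on the CMT-U27 arrays, or 0.41 ± 0.03 and 0.23 ± 0.14 (SD, n = 2 arrays per line). In P114 this placed RELA 30th of 10803 genes by mean ratio, a fold of 1.33, and in CMT-U27 it ranked 314. Its other probe lay closer to 0, with means of 0.09 and 0.15.

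NFKB2 encodes p100, the precursor of p52 in the non-canonical pathway. The NFKB2 ratio was 0.44 and 0.18 in P114 and 0.33 and 0.27 in CMT-U27. The means were close, at 0.31 ± 0.18 and 0.30 ± 0.04 (SD, n = 2), which is 1.24-fold and 1.23-fold. On its other probe they were 0.05 and 0.07, and 1 P114 array was at -0.04.

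NFKB1 encodes p105, the precursor of p50, which pairs with p65. For NFKB1 the log2 ratio was 0.29 and 0.01 in P114 and 0.19 and 0.34 in CMT-U27, with means of 0.15 ± 0.20 and 0.27 ± 0.11 (SD, n = 2). The P114 mean was smaller than the spread of its arrays, and on the other probe 1 array of each line was below 0, at -0.18 in P114 and -0.02 in CMT-U27. RELB, the partner of p52, had ratios of 0.14 and 0.25 in P114 and of 0.11 and 0.08 in CMT-U27. Its means were 0.19 ± 0.07 and 0.10 ± 0.02 (SD, n = 2), the latter the lowest among the subunits in CMT-U27.

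NFKBIA encodes IkB-alpha, the inhibitor that NF-kB induces to end its own activity. Its log2 ratio was 0.83 and 0.79 in P114, with a mean of 0.81 ± 0.03 (SD, n = 2). In CMT-U27 it was 0.69 and 0.58, with a mean of 0.63 ± 0.08 (SD, n = 2). All 4 values lay above those of the other listed genes on the same array, except ICAM1 at 0.60 on CMT-U27 replicate 2. By mean ratio NFKBIA ranked 6 in P114, 12 in CMT-U27 and 6 over all 4 arrays among 10803 genes. The other NFKBIA probe had smaller ratios of 0.30 and 0.63 in P114 and 0.51 and 0.43 in CMT-U27, a mean of 0.47 and a fold of 1.38 in each line. Thus the direction was shared by both probes and the size was not.

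NFKBIZ encodes a nuclear IkB protein that acts on a subset of NF-kB targets. The arrays gave log2 ratios of 0.10 and 0.04 in P114 and 0.40 and 0.21 in CMT-U27. The CMT-U27 mean of 0.30 ± 0.13 (SD, n = 2) lay above the P114 mean of 0.07 ± 0.04. On its other probe the order was not kept, with means of 0.17 ± 0.33 in P114 and 0.11 ± 0.02 in CMT-U27.

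TNFAIP3 encodes A20, a ubiquitin-editing enzyme that switches off signalling above the IkB kinases. Its log2 ratio was 0.01 and 0.03 in P114 and 0.28 and 0.21 in CMT-U27, with means of 0.02 ± 0.02 and 0.25 ± 0.05 (SD, n = 2). In P114 the probe was well above background on 1 of 2 arrays in each culture, replicate 1, so the P114 ratio describes a signal near background. From the scanner software's own signals, which carry no offset, the mean was 0.93 in CMT-U27. The other TNFAIP3 probe was well above background in 1 of 8 channels and was not tested.

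BIRC3 encodes cIAP2, an inhibitor of apoptosis and ubiquitin ligase in signalling from tumour necrosis factor receptors. Its log2 ratio was 0.17 and 0.15 in P114 and 0.46 and 0.30 in CMT-U27. The means of 0.16 ± 0.01 and 0.38 ± 0.12 (SD, n = 2) correspond to 1.12-fold and 1.30-fold. Its other probe was near 0 in both lines, at means of 0.05 and 0.00, and in CMT-U27 it was well above background on 0 of 2 arrays in single culture and 1 of 2 in co-culture.

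ICAM1 encodes an adhesion molecule that binds leukocyte integrins. In CMT-U27 its log2 ratio was 0.40 and 0.60, a mean of 0.50 ± 0.14 (SD, n = 2) and a fold of 1.41. By mean ratio it ranked 25 of 10803 genes in CMT-U27 and 5727 in P114. In P114 the arrays gave 0.31 and -0.31, a mean of 0.00 ± 0.44 (SD, n = 2), and the Cy3 channel was the brighter one on both. The dyes were swapped between these arrays, so a dye effect of equal size would cancel in their mean. The part of the dyes in these values was not tested. The other ICAM1 probe gave 0.07 and 0.15 in P114 and 0.18 and 0.03 in CMT-U27.

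Across the 8 genes with another probe, the mean ratio of that probe was above 0 for 8 of 8 in both lines. It was smaller than that of the brightest probe for 6 of 8 genes in P114 and 8 of 8 in CMT-U27, and above 0 on all 4 arrays for 3 of 8. An offset of 50 was added to every spot before the ratio was taken, which draws the ratios of dim probes towards 0. How the difference between probes divides between this offset and the transcripts they read was not tested.

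The genes with ratios nearest to those of NFKBIA, by Euclidean distance over the 4 arrays, were CXCL16 at a distance of 0.55, MTMR4 at 0.71, PLEC at 0.73, PLK1 at 0.75 and PFKP at 0.76. CXCL16, a membrane-bound chemokine, had log2 ratios of 0.83 and 0.51 in P114 and 0.31 and 0.30 in CMT-U27. Thus its first P114 array matched NFKBIA and both CMT-U27 arrays lay lower.

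The lines were then compared within each culture, by the level of a probe in each channel. This contrast is not the co-culture ratio by which the genes were chosen. The list was drawn up with earlier results of these data known, so the comparison is no independent test of it. Levels are log2 intensities after normalization between arrays, and they are compared between samples for the same probe only. In limma's separate-channel fit with Benjamini-Hochberg adjustment, NFKBIA and TNFAIP3 were higher and ICAM1 was lower in CMT-U27 than in P114, in single culture and in co-culture alike. These were 3 of 9 genes in each culture, and TNFAIP3 passed the filter only through CMT-U27, the line where it was higher. Over all probes 15.2% passed in single culture and 15.4% in co-culture. Over all genes, each by its brightest probe, 17.8% passed in single culture (10.1% higher and 7.70% lower in CMT-U27) and 18.1% in co-culture (11.0% and 7.10%).

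**Figure D2:**
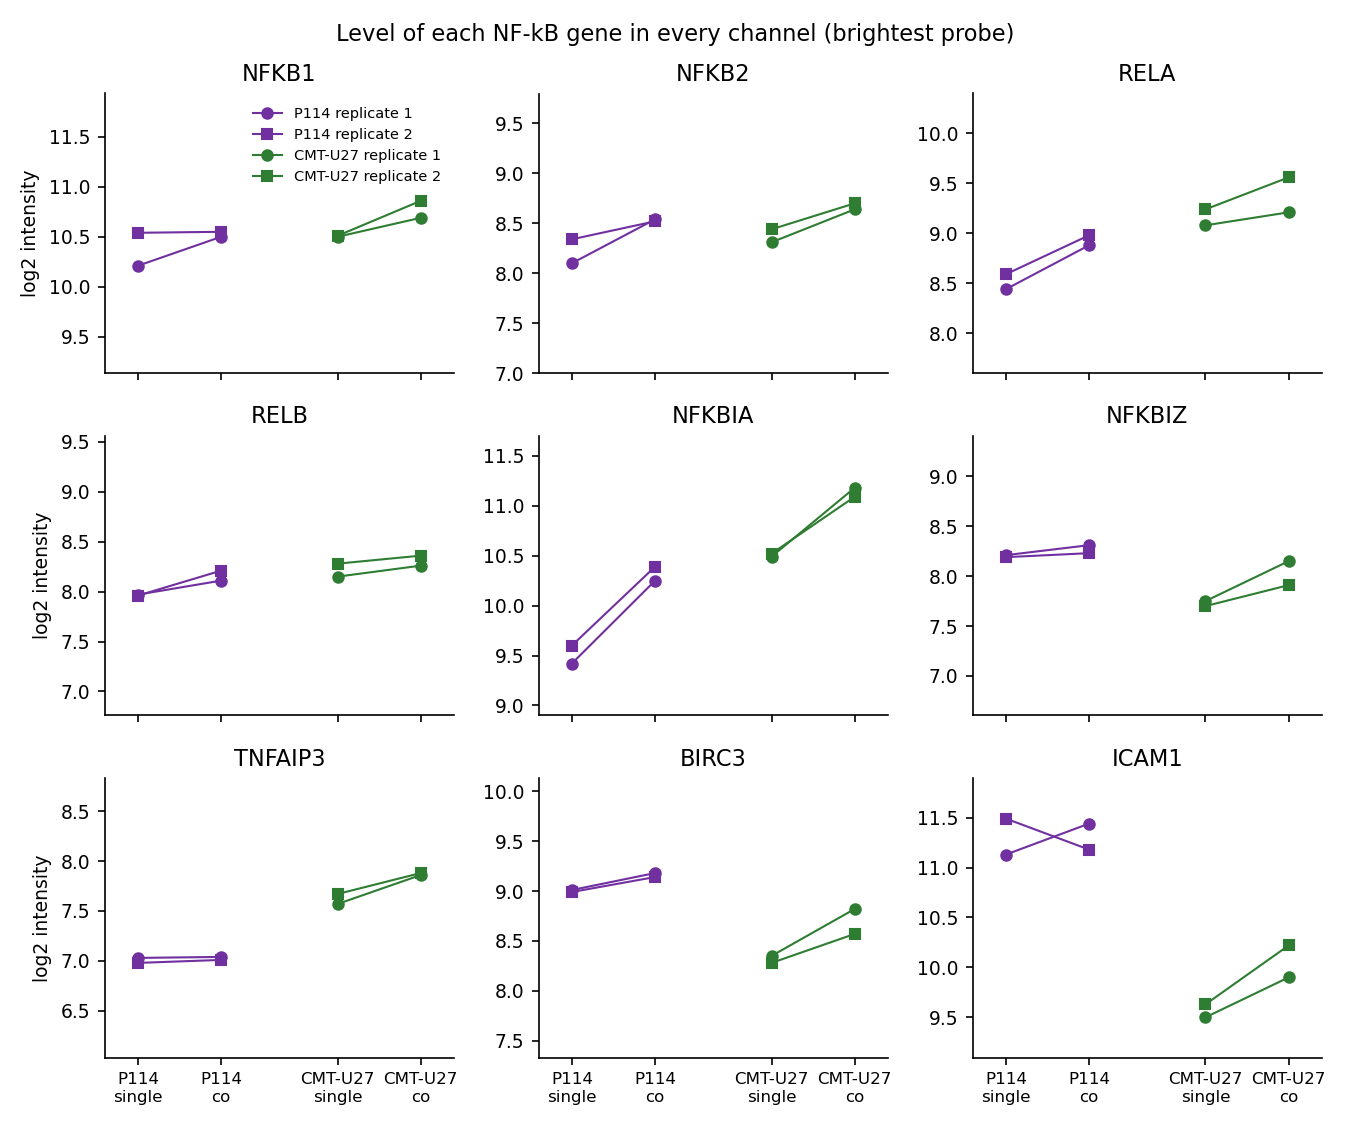
Log2 intensity (vertical axis, a span of equal length in each panel) of the brightest probe of each gene in single culture and co-culture, with lines joining the channels of an array, P114 in purple, CMT-U27 in green, circles for replicate 1 and squares for replicate 2. All NFKBIA lines run upwards and the CMT-U27 channels of TNFAIP3 lie above those of P114, while the ICAM1 channels of CMT-U27 lie below those of P114.

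The NFKBIA level in single culture was 9.42 and 9.60 in P114 and 10.49 and 10.52 in CMT-U27. In co-culture it was 10.25 and 10.39 in P114 and 11.18 and 11.09 in CMT-U27. The order was thus P114 alone, P114 with macrophages, CMT-U27 alone and CMT-U27 with macrophages, and the middle pair, at 10.32 ± 0.10 and 10.50 ± 0.02 (SD, n = 2), lay closest together. The middle pair was not compared by a test. With median centring in place of loess its order turned: the P114 ratio of 1.17 exceeded the line difference of 0.52 in single culture. CMT-U27 exceeded P114 by a log2 difference of 0.99 (SE 0.16, 95% interval 0.60 to 1.39, limma adjusted p = 0.0132) in single culture, or 1.99-fold. In co-culture the difference was 0.82 (interval 0.42 to 1.21, limma adjusted p = 0.0242), or 1.76-fold. The other NFKBIA probe gave 0.79 and 0.80 and did not pass in either culture, with limma adjusted p-values of 0.0513 and 0.0501. Without CMT-U27 replicate 1 or 2 the limma adjusted p in single culture was 0.241 and 0.264, and without P114 replicate 1 it was 0.0596. In co-culture the call was lost without any 1 array, with limma adjusted p-values from 0.0506 to 0.381. Median centring in place of loess lowered the difference in single culture to 0.52 (limma adjusted p = 0.204), the scanner software's signals gave limma adjusted p-values of 0.0607 in single culture and 0.103 in co-culture, and no background correction gave 0.0585 in co-culture.

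The ICAM1 level in single culture was 11.13 and 11.49 in P114 and 9.50 and 9.63 in CMT-U27. In co-culture it was 11.44 and 11.18 in P114 and 9.90 and 10.22 in CMT-U27. Every CMT-U27 channel lay below every P114 channel, and the P114 cultures overlapped at means of 11.31 each. The log2 difference of CMT-U27 from P114 was -1.75 (SE 0.29, 95% interval -2.46 to -1.03, limma adjusted p = 0.0145) in single culture, 3.36-fold lower, and -1.25 (interval -1.96 to -0.54, limma adjusted p = 0.0402) in co-culture, 2.38-fold lower. The other ICAM1 probe passed as well, at -0.71 in both cultures, with limma adjusted p-values of 0.035 and 0.0344. Without CMT-U27 replicate 1 or 2 the limma adjusted p in single culture was 0.499 and 0.479, and in co-culture the call was lost without any 1 array, with values from 0.0514 to 0.758. It was also lost in co-culture with median centring in place of loess (-0.88, limma adjusted p = 0.0843) and with no filter on dim probes (limma adjusted p = 0.0861).

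The TNFAIP3 level in single culture was 7.03 and 6.98 in P114 and 7.57 and 7.67 in CMT-U27. In co-culture it was 7.04 and 7.01 in P114 and 7.86 and 7.88 in CMT-U27. All CMT-U27 channels lay above all P114 channels, and P114 was well above background on 1 of 2 arrays in each culture. The probe was thus tested only because of its signal in CMT-U27, the line where it was higher. The log2 difference was 0.62 (SE 0.13, 95% interval 0.30 to 0.93, limma adjusted p = 0.0291) in single culture and 0.84 (interval 0.53 to 1.16, limma adjusted p = 0.0108) in co-culture. The offset of 50 draws differences near background towards 0, so no fold is given. From the scanner software's signals, without an offset, the differences were 2.60 and 3.65, and the one in single culture then had a limma adjusted p of 0.0817. These set CMT-U27 against a P114 signal near background and are not measured sizes either. Centring arrays on their median, without loess, gave 0.39 in single culture (limma adjusted p = 0.161). In single culture the call was lost without any 1 array, with limma adjusted p-values from 0.0719 to 0.562, and in co-culture without CMT-U27 replicate 1 or 2, with 0.305 and 0.318.

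**Figure D3:**
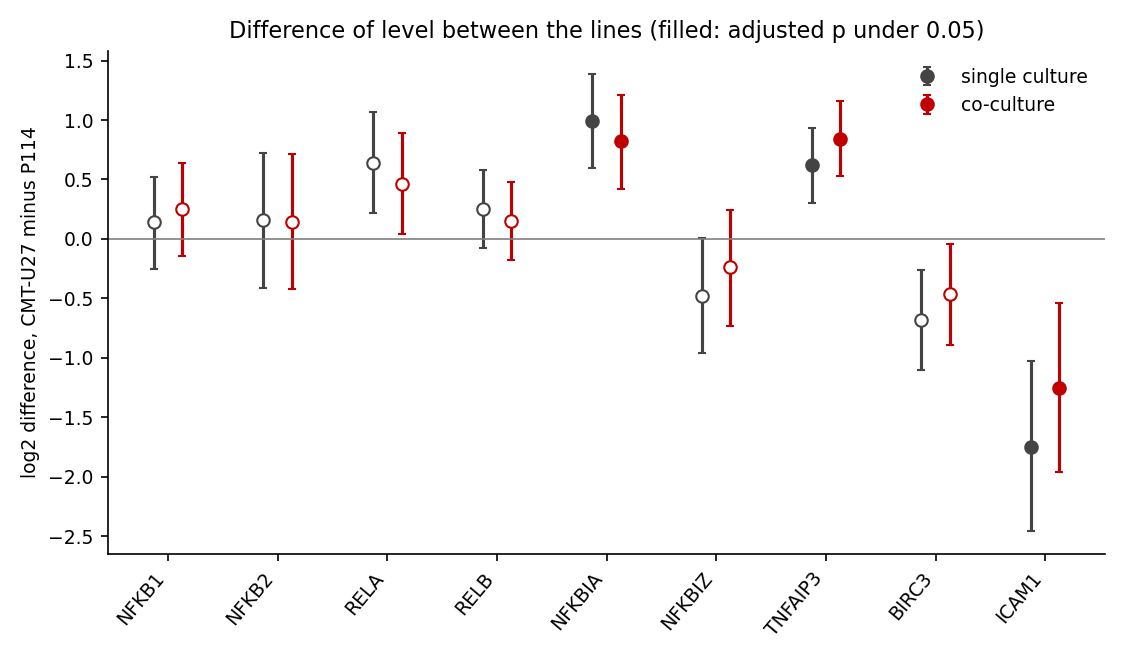
Log2 difference of level, CMT-U27 minus P114 (vertical axis), for the brightest probe of each gene in single culture (grey) and co-culture (red), with 95% intervals from the separate-channel fit and filled points for an adjusted p under 0.05. NFKBIA and TNFAIP3 are filled above 0 and ICAM1 below 0, and the intervals of NFKB1, NFKB2 and RELB span 0 in both cultures.

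The other 6 genes did not pass in either culture. BIRC3 had levels of 9.01 and 8.99 in P114 and of 8.35 and 8.28 in CMT-U27 in single culture, a log2 difference of -0.68 (95% interval -1.10 to -0.26, limma adjusted p = 0.0509). Its other probe was not well above background in CMT-U27 in single culture and gives no direction there. When arrays were centred on their median, without loess, BIRC3 passed in single culture (-0.93, limma adjusted p = 0.044), and so it did with no background correction (-0.90, limma adjusted p = 0.0331). RELA had levels of 8.44 and 8.59 in P114 and of 9.08 and 9.24 in CMT-U27 in single culture, a log2 difference of 0.64 (interval 0.22 to 1.07, limma adjusted p = 0.0623). On the brightest probes of RELA and BIRC3 the arrays of the lines did not overlap in either culture. The share of all genes without overlap was not counted, so nothing is read from this. On the other RELA probe the arrays of the lines overlapped in both cultures, and the log2 difference in single culture was 0.13 (interval -0.38 to 0.65).

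NFKBIZ was at 8.21 and 8.19 in P114 and 7.75 and 7.70 in CMT-U27 in single culture, a log2 difference of -0.48 (95% interval -0.96 to 0.01). Its other probe gave -0.09 (interval -1.01 to 0.84). The differences of the remaining subunits in single culture were 0.14 for NFKB1 (interval -0.25 to 0.52), 0.16 for NFKB2 (interval -0.41 to 0.72) and 0.25 for RELB (interval -0.08 to 0.58). All 3 turned below 0 when arrays were centred on their median in place of loess. NFKB1 levels ran from 10.21 to 10.54 in P114 and from 10.50 to 10.51 in CMT-U27 in single culture, and from 10.50 to 10.55 and 10.69 to 10.86 in co-culture. Those of NFKB2 ran from 8.10 to 8.34 and 8.31 to 8.44 in single culture, and from 8.52 to 8.54 and 8.64 to 8.70 in co-culture. Those of RELB ran from 7.96 to 7.97 and 8.15 to 8.28 in single culture, and from 8.11 to 8.21 and 8.26 to 8.36 in co-culture. By the brightest probe the lines thus overlapped for NFKB1 and NFKB2 in single culture, and for none of these 3 subunits in co-culture. By the other probe they overlapped for neither NFKB1 nor NFKB2 in single culture, and for NFKB1 in co-culture. The share of all genes without such overlap was not counted, so nothing is read from these overlaps.

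The rest of the pathway was taken from 6 lists with 70 genes. The array carried 63 of them and 52 passed the filter. In single culture 9 of the 52 were higher and 5 were lower in CMT-U27 (10.1% and 7.70% of all genes), and in co-culture 10 and 4 (11.0% and 7.10%). Both P114 arrays had a co-culture ratio above 0 for 17 of 52 genes (23.6% of all genes), both CMT-U27 arrays for 33 (41.3%) and all 4 arrays for 12 (11.8%). Their median log2 ratio was 0.00 in P114 and 0.10 in CMT-U27, beside 0.01 and 0.03 over all genes.

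Among the ligands 0 of 4 tested genes, TNF included, passed the comparison of the lines. Of all genes 17.8% passed in single culture and 18.1% in co-culture. The interleukin-1 genes IL1A and IL1B were on the array but not among the tested genes, so they have no result. Among the receptors 2 of 7 passed in each culture, both higher in CMT-U27. Of all genes 10.1% were higher in single culture and 11.0% in co-culture. TLR2, a receptor for bacterial lipoproteins, was not well above background in P114 and was at least 3.5-fold higher in CMT-U27 in single culture (limma adjusted p = 0.00133) and at least 4-fold higher in co-culture (limma adjusted p = 0.00108). These bounds set the CMT-U27 mean against the lowest signal well above background on each P114 array, or the probe's own where that was higher. TLR4, the receptor for lipopolysaccharide, was higher by 0.90 on the log2 scale (limma adjusted p = 0.013), with P114 well above background on 1 of 2 arrays. The probes of TLR2 and TLR4 passed the filter only through CMT-U27, the line where they were higher.

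Of 10 tested adaptors and ubiquitin ligases, 2 were higher in CMT-U27 in single culture and 0 were lower (10.1% and 7.70% of all genes). MYD88, the adaptor of Toll-like and interleukin-1 receptors, was higher by 1.20 (limma adjusted p = 0.0099), and TRAF2, which links tumour necrosis factor receptors to the IkB kinases, by 1.16 (limma adjusted p = 0.0105). In co-culture RNF31, the catalytic part of the linear ubiquitin ligase, also passed, at 0.65 (limma adjusted p = 0.036). Both MYD88 and TRAF2 had co-culture ratios above 0 on all 4 arrays, at 0.24, 0.21, 0.24 and 0.06 for MYD88 and 0.45, 0.21, 0.13 and 0.39 for TRAF2, with P114 first. Of the 7 tested kinases, 0 passed between the lines (17.8% of all genes in single culture and 18.1% in co-culture). IKBKB, the IkB kinase of the canonical pathway, had ratios of 0.03 and 0.18 in P114 and 0.21 and 0.13 in CMT-U27.

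Among 11 other subunits and inhibitors, 1 was higher and 1 lower in CMT-U27 in single culture, where 10.1% and 7.70% of all genes were. CYLD, a deubiquitinase that restrains the pathway, was lower by 2.53-fold in single culture, from 10.12 in P114 to 8.78 in CMT-U27 (limma adjusted p = 0.00251). OTUD7B, another deubiquitinase, was higher by 0.79 (limma adjusted p = 0.0497). The other 9 tested members of this list did not pass in single culture.

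Of 13 other target genes tested, 4 were higher and 4 were lower in CMT-U27 in single culture, where 10.1% and 7.70% of all genes were. PTX3, a soluble pattern-recognition protein, was higher by 2.14 (limma adjusted p = 0.000971), SOD2, the mitochondrial superoxide dismutase, by 1.31 (limma adjusted p = 0.00668), MMP9 by 1.17 (limma adjusted p = 0.0217) and the transcription factor IRF1 by 0.72 (limma adjusted p = 0.0446). In P114 the MMP9 signal was well above background on only 1 of 2 arrays, so its probe passed the filter only through CMT-U27. The log2 difference was -2.08 for PLAU, the urokinase-type plasminogen activator (limma adjusted p = 0.00839), -1.84 for the apoptosis inhibitor BCL2A1 (limma adjusted p = 0.00705), -1.39 for CSF2 (limma adjusted p = 0.022) and -1.37 for CSF1 (limma adjusted p = 0.0244), the genes of the colony-stimulating factors GM-CSF and M-CSF. In co-culture CSF2 did not pass (limma adjusted p = 0.107) and 4 genes were higher and 3 lower (11.0% and 7.10% of all genes).

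**Figure D4:**
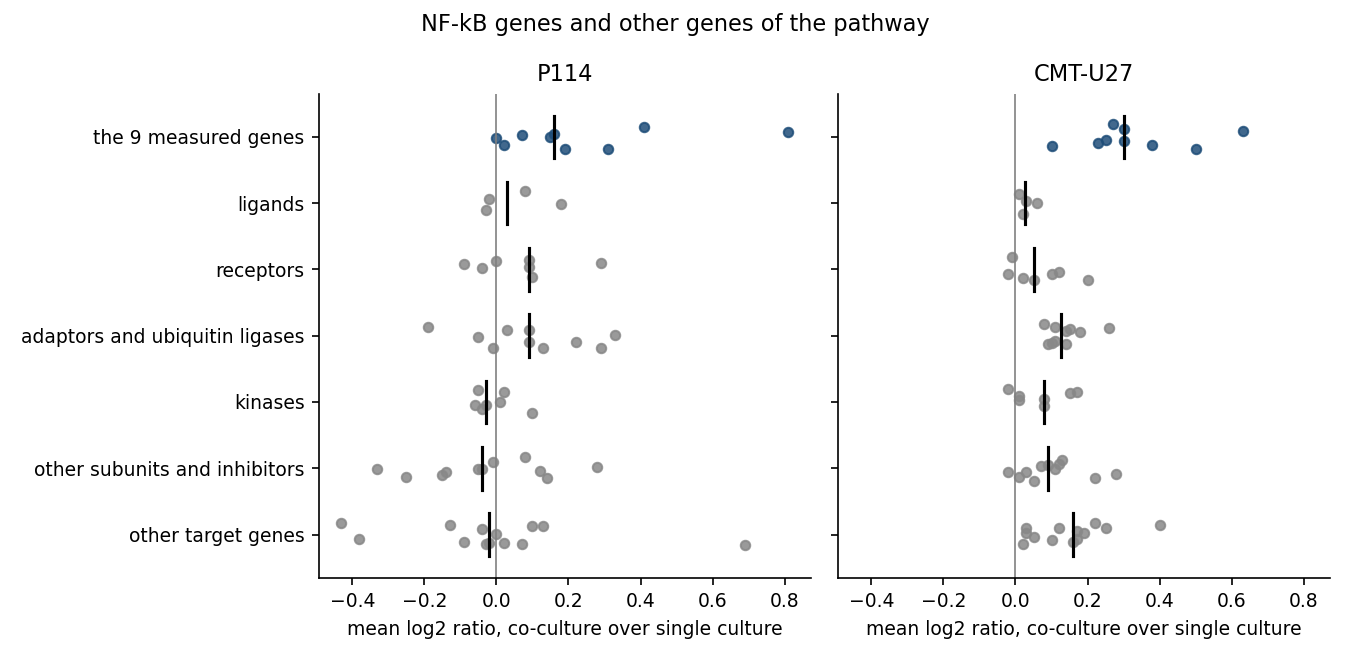
Mean log2 ratio of co-culture over single culture (horizontal axis) of the 9 listed genes (blue) and of the tested genes in each pathway list (grey) in P114 (left) and CMT-U27 (right), 1 point per gene with vertical bars for the list median. The listed genes have medians of 0.16 and 0.30, beside 0.00 and 0.10 over the 52 other pathway genes. The listed genes were selected on these ratios, so nothing is read from the difference.

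Markers of other cell types were read beside these results. Of 19 macrophage markers, each by its brightest probe, 18 were well above background in both cultures on P114 replicate 1, 5 in both on P114 replicate 2, and 3 or 4 in single culture against 5 in co-culture on the CMT-U27 arrays. Of all spots, 89.4% in Cy3 and 91.7% in Cy5 were so on P114 replicate 1, and 57.9% to 65.7% in the channels of the other arrays. The count of 18 thus lies near the share of all spots on that array. Their summed linear level ran from 3557 to 4187 in single culture and 3287 to 4080 in co-culture in P114, and from 3158 to 3348 and 3260 to 3413 in CMT-U27. CD14 was well above background in every channel, with a co-culture log2 ratio of 0.04 ± 0.15 in P114 and 0.04 ± 0.03 in CMT-U27 (SD, n = 2). CSF1R and CD163 were not well above background on any CMT-U27 array, and SPI1 was on 1 of 2 in co-culture only. In P114, CSF1R and SPI1 were so on 1 of 2 arrays in each culture, and CD163 was on 1 of 2 by its brightest probe and on 2 of 2 by the probe that was tested. CD86, a costimulatory receptor of antigen-presenting cells, had co-culture log2 ratios of -0.34 and -0.35 in P114. Those of LAPTM5, a lysosomal protein of blood cells, were -0.10 and -0.34. In CMT-U27 the means of CD86 and LAPTM5 were 0.01 and -0.01. CD68, another macrophage marker, had ratios of 0.19 and -0.12 in P114 and 0.16 and 0.09 in CMT-U27. The median log2 ratio of the 6 tested macrophage markers was -0.02 in P114 and 0.00 in CMT-U27. The part of macrophage RNA in the NFKBIA ratio was not tested.

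Epithelial markers moved with the difference between the lines: 8 of 10 tested were higher in CMT-U27 in single culture and 9 in co-culture. Of all genes 10.1% were higher and 7.70% lower in CMT-U27 in single culture, and 11.0% and 7.10% in co-culture. EPCAM stood at 15.00 in CMT-U27 against 12.34 in P114 in single culture. The summed level of 12 epithelial markers in single culture was 130229 and 144913 in CMT-U27 and 21689 and 21710 in P114. That of 10 fibroblast markers was 4461 and 4769 in CMT-U27 and 23337 and 21918 in P114, and 0 of 9 tested were higher and 1 lower in CMT-U27. That gene was COL1A2, a collagen chain, at 14.38 and 14.29 in P114 and 11.47 and 11.61 in CMT-U27, while the other 8 tested fibroblast markers did not pass. The brightest of those 8, THY1, had means of 8.61 in P114 and 8.45 in CMT-U27 in single culture. The summed fibroblast level thus rests mostly on COL1A2 and does not stand for the list. Of the macrophage markers 0 of 6 tested were higher and 1 was lower in CMT-U27, CD86, which was not well above background there and was at least 5.14-fold higher in P114 in single culture (limma adjusted p = 0.000485). The CD86 probe passed the filter only through P114. Of the endothelial markers 1 of 5 tested was higher in CMT-U27, and of the lymphocyte markers 0 of 6 passed. Their part in the differences of NFKBIA, ICAM1 and TNFAIP3 was not tested.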

How the data were processed

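The deposited scanner files give linear intensity per spot and its local background, written by Agilent Feature Extraction, version 10.10.1.1 per the file headers and 10.7.3.1 per the submitters' processing notes. Per the file headers, the array design is 021193 on CanFam3.1, and the log10 ratio column, equal to the authors' value table, is Cy5 over Cy3. The deposited 0 or 1 flags served as filters. The labels' protocols name an miRNA labelling kit.

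Intensities were corrected with normexp (offset 50) and loess within arrays, with Aquantile for levels. Marked spots were left out. Probes well above background on both arrays of 1 line and culture were kept. Tests used limma 3.58.1 in R 4.3.3, checked on simulated data, with Benjamini-Hochberg adjustment over 28694 probes. Ratios were fitted per line with a dye term (1 residual degree of freedom), and levels by channel (intraspot correlation 0.936, 3 residual degrees of freedom). All 4 arrays share 1 slide. Replicates are numbered in record order. Figures used Python 3.11.15 and matplotlib 3.10.9.

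Members and pathway and marker lists were chosen with earlier results of these data known. Besides all listed genes, the text names pathway genes past the single-culture comparison of the lines, otherwise up to 3 with the largest ratios of 1 sign on all arrays, the 5 genes nearest to NFKBIA, and CD14, CSF1R, CD163 and SPI1. RNF31, CD68, CD86, LAPTM5, COL1A2, THY1 and EPCAM were named after their values were seen. RefSeq names (UU_Cfam_GSD_1.0) held all 10 listed symbols. Alternatives changed background correction, normalization, filter, dye term, probe or the arrays used. The small number of arrays limits precision.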

Additional observations from a re-analysis of the deposited data

How the results depend on the processing

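The number of probes past the threshold between the lines in single culture was 4361, and became 9385 without a dye term, 2388 with the scanner software's signals and 0 with no normalization between arrays. In co-culture it was 4429, and became 8029 with median centring in place of loess, 9499 without a dye term, 2436 with the scanner signals and 0 with no normalization between arrays. Leaving out 1 array gave 259 to 4559 in single culture, with the fewest without CMT-U27 replicate 1 (279) or 2 (259), and 266 to 4308 in co-culture (266 and 271 without those arrays). The 3 listed genes that passed in single culture became 6 without a dye term, 5 with quantile normalization, 1 with the scanner signals, 0 with no normalization between arrays and 0 to 2 without 1 array. With median centring 0 were higher and 2 lower in CMT-U27 (ICAM1 and BIRC3), against 2 and 1, and in co-culture 3 were higher and 0 lower. In co-culture the 3 became 5 without a dye term, 0 with no normalization between arrays and 0 to 1 without 1 array.

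For the ratios, 0 probes passed in P114, CMT-U27 and their difference. With median centring the counts were 5, 17343 and 12449, and that setting moved the median of all probes to 0.16 in P114 and 0.68 in CMT-U27. It also moved the share of calls higher in CMT-U27 from 54.2% to 20.1% in single culture and from 57.1% to 77.7% in co-culture. Without background correction 12 probes passed in CMT-U27 and 1 in the difference, and with all channels well above background 1 passed in CMT-U27. Leaving out 1 array gave 0 to 64 in P114 (64 without P114 replicate 2), 0 to 17 in CMT-U27 (17 without CMT-U27 replicate 1) and 0 to 61 in the difference (8 and 61 without those arrays). The cause was not tested.

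Some level differences between the lines changed sign. That of BIRC3 was 0.08 in single culture and 0.03 in co-culture on its other probe, which was well above background on 0 and 1 of 2 CMT-U27 arrays, so these signs carry no direction. In single culture median centring gave -0.31 for NFKB1, -0.15 for NFKB2 and -0.02 for RELB, and NFKB1 ran from -0.03 without P114 replicate 1 to 0.30 without P114 replicate 2. In co-culture NFKBIZ was at 0.10 with no normalization between arrays. Over all settings the NFKBIA ratio lay between 0.47 and 1.17 in P114 and between 0.47 and 1.93 in CMT-U27, that of ICAM1 in P114 between -0.31 and 0.41, and that of TNFAIP3 in P114 between -0.12 and 0.03. The other ratios of listed genes kept their sign in the settings run. Fits with 1 array left out had no dye term and kept the intraspot correlation of all arrays, and the lone array of a line was assumed to vary like the other line's. The cultures of a line were paired on each array, in the ratios and through the intraspot correlation. The lines were hybridised on separate arrays, so the comparison between them was unpaired. The labels give the arrays no replicate numbers.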
